A study of Mus musculus with 5 samples.

Results

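The genes of fatty acid oxidation and the tricarboxylic acid (TCA) cycle were read out of RNA-seq of preparations of splenic regulatory T cells (Tregs). They are 46 genes, picked by symbol as a pathway list, which was drawn up with earlier results of these data known, among 48440 genes of the deposited table. All 46 had enough counts to be tested. The KO group held 3 libraries from C57B/6 mice of the genotype CD4-KLF10-KO, which the sample titles call a knockout specific to CD4 T cells, and the WT group held 2 libraries from wild-type C57B/6 mice. Every mouse was on a high-fat diet, and the CD4+CD25+ cells were taken with magnetic beads from the spleen and lysed fresh, without treatment. The labels name neither the Cre driver nor the deleted part of the gene, and they give no age. The deleted gene encodes KLF10, one of the Krüppel-like factors, which bind DNA through zinc fingers. The library codes begin with B in KO and with A in WT, so what the letter marks cannot be told apart from genotype. Nothing in the labels ties a code to its own animal, so p-values measure only the spread between these 5 libraries, which may be technical.

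Fatty acid oxidation begins when acyl-CoA synthetases activate a fatty acid and the carnitine shuttle carries it into the mitochondrion. There the beta-oxidation spiral shortens it to acetyl-CoA, handing electrons to the electron transfer flavoprotein. Acetyl-CoA from fatty acids, or from pyruvate through pyruvate dehydrogenase, enters the TCA cycle by condensing with oxaloacetate. Tregs are known to rely on mitochondrial oxidation, including that of fatty acids, more than effector T cells do.

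Transcripts of most of these enzymes were at nearly the same level in KO and WT preparations. None of the 46 genes passed a false discovery rate of 0.05 (quasi-likelihood test of edgeR, adjusted by Benjamini-Hochberg across 14460 genes), where 0.284% of all genes tested did. At an unadjusted p under 0.05, 3 of the 46 were higher in KO, against 10.7% of all genes tested, and 0 were lower, against 5.62%. The 3 genes were Acsl1, which activates long-chain fatty acids, Pcx, which carboxylates pyruvate to oxaloacetate, and Idh1, the cytosolic NADP-dependent isocitrate dehydrogenase. Every KO library lay above both WT libraries for 5 genes (17.6% of all genes tested did so), and below both for 6 (17.4% did so). The groups overlapped for the other 35. Those same 3 genes were called with the DESeq2 Wald test, which called 5.84% of all genes as higher in KO, with scaling to pan-T cell genes (8.24%), with no filter on low counts (2.48%) and at a false discovery rate of 0.10 (3.44%). Acsl1 and Pcx were called without KO library 1 (2.22%), and none of the 46 was called without any other single library.

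The median log2 fold change of the 46 genes, KO over WT, was −0.0095, beside −0.0139 over all genes tested. Sign was split, with 21 genes on the positive and 25 on the negative side, whereas with scaling to pan-T cell genes, which moved the median of all genes up by 0.26, all 46 were positive and their median was 0.25. The median size of the log2 fold change without its sign was 0.0575, beside 0.132 over all genes tested. For 40 of the 46 genes the whole 95% interval of the fold change lay within 1.5-fold in either direction, as it did for 60.0% of all genes tested. Genes with more counts have narrower intervals, and the median gene here had 1363 counts per library on average, against 603 among all genes tested. The 6 genes with wider intervals were Acsl1, Pcx, Idh1, Cd36, Cpt1b and Ppargc1a. These levels are relative to each library's other transcripts, and in such bulk samples fewer cells of a type and less RNA per cell cannot be told apart.

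**Figure D1:**
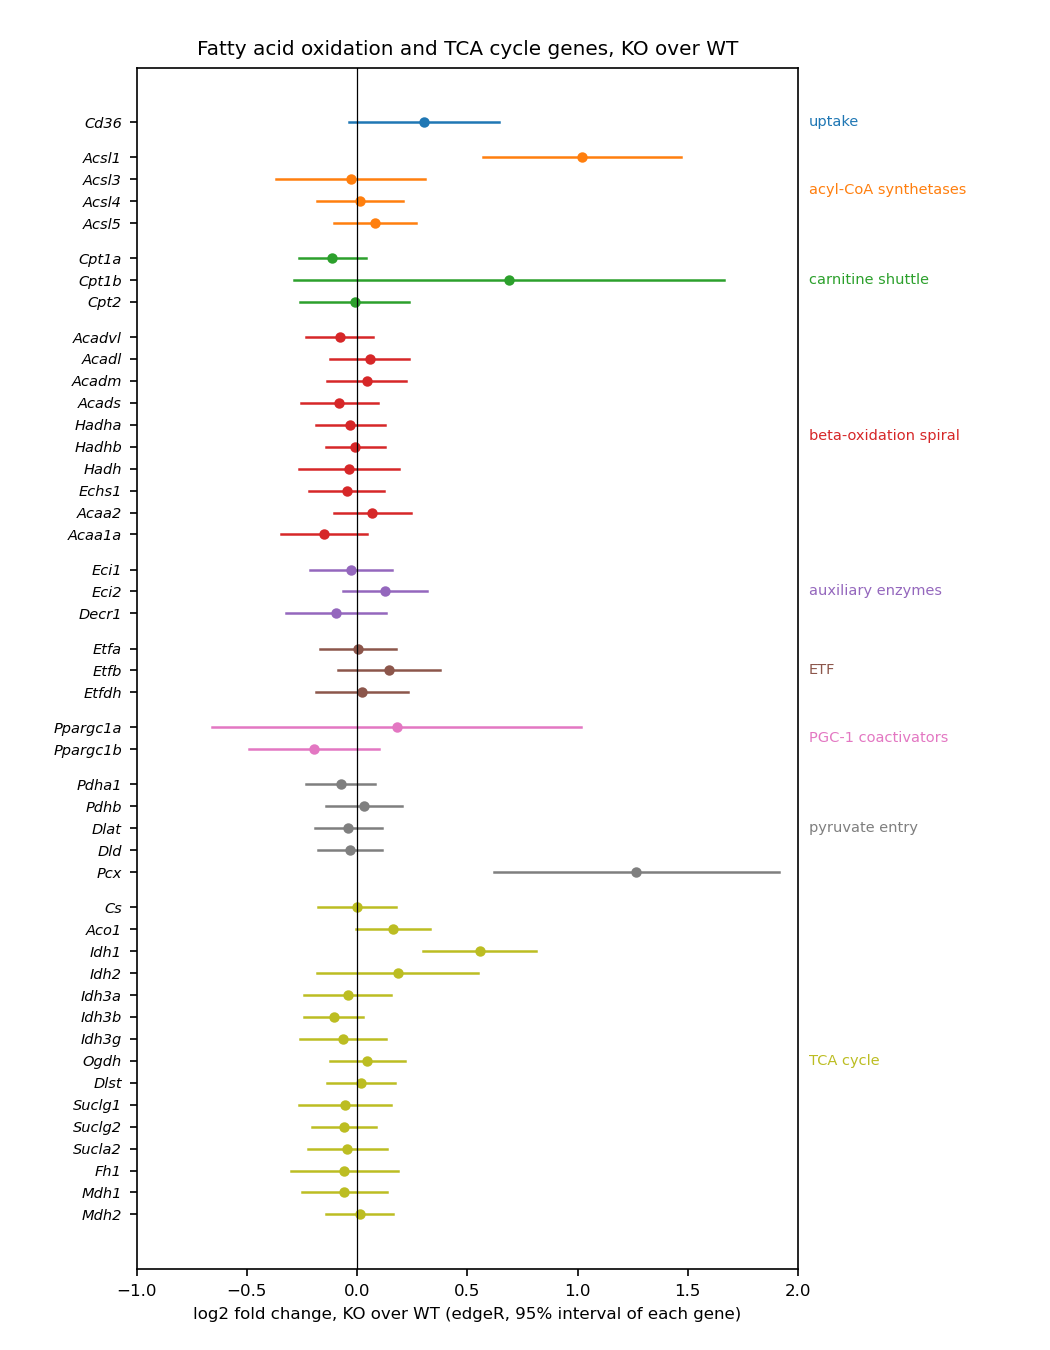
Log2 fold change, KO over WT, of each of the 46 genes (points) with its 95% interval from the edgeR fit (lines), by role, from 3 KO and 2 WT libraries. Acsl1, Pcx and Idh1 are the genes whose interval lies wholly to the right of 0, and 40 intervals stay within 1.5-fold.

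Total counts per library lay between 25622614 and 30521797. The targeted gene, Klf10 on the minus strand of chromosome 15 (38294413 to 38300707, GRCm38), had 408, 331 and 271 counts in KO libraries and 668 and 588 counts in WT libraries. Its log2 fold change was −0.84 (SE 0.22, edgeR adjusted p = 0.136), so Klf10 reads were still present in KO. The Treg marker genes, Foxp3 among them, were detected in all libraries, and their summed scaled counts per 1000000 (CPM) were 1806 to 1843 in KO and 1820 to 2242 in WT. Of these 8 genes, 2 were lower in every KO library than in both WT libraries (Il2ra and Lrrc32), beside 17.4% of all genes tested. The other 6 overlapped. Il2ra, which encodes CD25, was at 266 to 287 CPM in KO and 332 to 411 CPM in WT (log2 fold change −0.42, edgeR adjusted p = 0.104). With TMM scaling all 14 pan-T cell genes had negative log2 fold changes, and their summed CPM was 3141 to 3299 in KO and 3575 to 4142 in WT. All 15 macrophage genes were higher in every KO library than in both WT libraries, beside 17.6% of all genes tested. Of the 15, 3 were called (Adgre1, Cd68 and C1qc), beside 0.284% of all genes tested. The summed CPM of the 15 was 1344 to 1731 in KO and 508 to 780 in WT. All 13 erythroid genes were likewise higher in every KO library, with none called, and their sum was 55977 to 92286 CPM in KO and 14739 to 20702 CPM in WT. Haemoglobin genes took 16.7% to 24.6% of the deposited transcripts per 1000000 (TPM) in KO libraries and 4.74% to 6.93% in WT libraries. TPM of every other gene is pushed down by that share, so the level of a gene was compared between groups in CPM, scaled by the trimmed mean of M-values (TMM). TPM served to set genes beside one another, as mean levels or as shares and ratios. Shares and ratios were formed within each library and then compared between groups.

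Of the 5 genes of fatty acid uptake and activation, 1 was higher in KO at an unadjusted p under 0.05, beside 10.7% of all genes tested. Acsl1, an acyl-CoA synthetase of the endoplasmic reticulum and outer mitochondrial membrane, lies on the plus strand of chromosome 8 (46471037 to 46536051). It was measured at 81.8, 56.6 and 54.5 CPM in KO libraries 1 to 3, against 32.0 and 31.4 CPM in WT libraries. KO library 1 stood highest and the lowest KO library was well above both WT libraries. The log2 fold change was 1.02 (SE 0.19, 95% interval 0.57 to 1.47), a 2.03-fold higher level in KO. Acsl1 missed the threshold with edgeR (adjusted p = 0.0723) and passed it with the DESeq2 Wald test (adjusted p = 2.88e-05).

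No such difference was seen in the other acyl-CoA synthetases. Acsl5, which supplied most of the family's transcripts, was measured at 112.7, 123.3 and 123.2 CPM in KO libraries and 106.8 and 119.5 CPM in WT libraries, a log2 fold change of 0.08 (SE 0.08, adjusted p = 0.666). Acsl4, which prefers arachidonic acid, was at 42.2, 42.3 and 42.0 CPM in KO and 44.9 and 38.6 CPM in WT, a log2 fold change of 0.01 (SE 0.08, adjusted p = 0.954). Both genes overlapped between the groups, as did Acsl3, at 8.58 to 10.5 CPM in KO and 9.27 to 10.6 CPM in WT. Per length, Acsl1 made up 15.9%, 10.8% and 10.6% of the summed TPM of the 4 synthetases in KO libraries and 7.09% and 6.53% in WT libraries. Acsl5 made up 69.3% ± 3.24 in KO (SD, n = 3) and 72.8% ± 2.53 in WT (SD, n = 2), so its rank at the top was the same in every library. Cd36, a scavenger receptor that takes up long-chain fatty acids, was at 67.6, 49.3 and 57.4 CPM in KO and 43.8 and 50.4 CPM in WT. KO library 2 lay below WT library 2, and the 95% interval of its log2 fold change, −0.034 to 0.64, held 0.

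**Figure D2:**
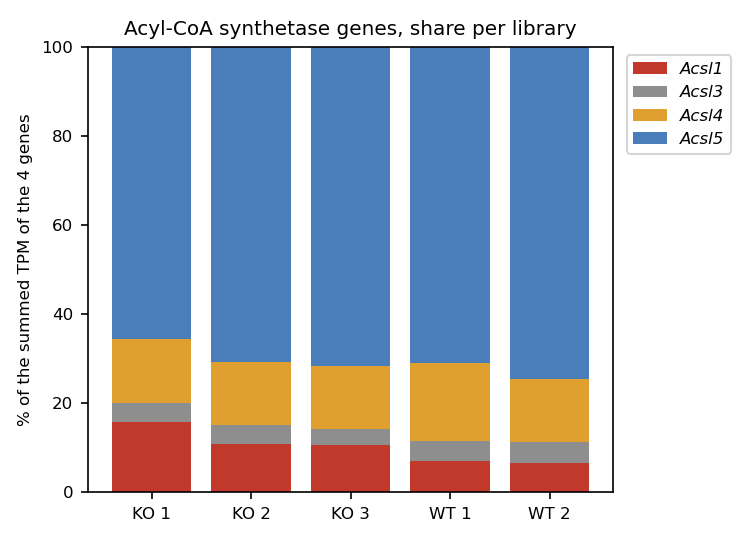
Share of each acyl-CoA synthetase gene in the summed deposited TPM of the 4 genes, 1 bar per library, with KO libraries on the left and WT libraries on the right. Acsl1 takes 10.6% to 15.9% in KO and 6.53% to 7.09% in WT, and Acsl5 is the largest share in every library.

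Carnitine shuttle transcripts came almost wholly from Cpt1a and Cpt2. Cpt1a, the liver-type carnitine palmitoyltransferase that commits fatty acids to mitochondrial oxidation, was at 132.2, 139.9 and 139.8 CPM in KO libraries and 143.9 and 152.7 CPM in WT libraries. All KO values were below both WT values, but by little, with a log2 fold change of −0.11 (SE 0.06, adjusted p = 0.44, interval −0.26 to 0.04) that was 0.14 with pan-T cell scaling. Cpt1b, the muscle-type enzyme, was near the lower limit of detection at 1.57, 2.96 and 2.03 CPM in KO and 0.924 and 1.80 CPM in WT. Its log2 fold change of 0.69 had an SE of 0.40 (adjusted p = 0.462), and its gene model shares 9459 bases with Chkb on the same strand, which had 1933 counts on average against 51 for Cpt1b, so its reads are uncertain. By TPM, Cpt1a held 98.0% ± 0.589 of the sum of both CPT1 genes in KO and 98.9% ± 0.476 in WT (SD, n = 3 and 2). Cpt2, the inner-membrane transferase, was at 11.6 to 12.8 CPM in KO and 12.1 to 12.6 CPM in WT, with overlapping groups.

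The 10 genes of the beta-oxidation spiral were nearly level between the groups. Their log2 fold changes ran from −0.15 to 0.07 with a median of −0.033, none had an unadjusted p under 0.05, and all 10 intervals lay within 1.5-fold. Summed over the 10, the CPM were 627, 661 and 627 in KO libraries and 637 and 668 in WT libraries, which overlap. Hadha and Hadhb encode the subunits of the mitochondrial trifunctional protein, which carries out the last reactions on long chains. Hadha was at 146.2 to 155.2 CPM in KO and 147.9 to 160.4 CPM in WT, and Hadhb was at 73.7 to 75.5 CPM in KO and 73.9 to 75.6 CPM in WT. The 4 acyl-CoA dehydrogenases differ in the chain length they accept. By TPM, the very-long-chain enzyme gene Acadvl held 35.1% ± 1.03 of their sum in KO and 36.7% ± 1.68 in WT, and the long-chain gene Acadl held 36.1% ± 0.367 in KO and 34.3% ± 1.67 in WT (SD, n = 3 and 2). The medium-chain gene Acadm held the smallest share, 10.9% to 11.3% in KO and 10.5% to 10.8% in WT.

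Acadvl was at 77.4 to 84.3 CPM in KO, just below the 84.7 and 86.7 CPM in WT. Acaa1a, the peroxisomal thiolase, was at 64.8, 76.3 and 70.5 CPM in KO and 79.4 and 77.3 CPM in WT, also without overlap. Both overlap a gene on the opposite strand with many counts (Dvl2 for Acadvl, at 53.5% of its counts, and Myd88 for Acaa1a, at 80.8%), and whether counting used strand is not given in the sources used here. Acsl3, Echs1, Etfdh, Fh1, Sucla2 and, over 5 bases, Idh3b also share bases with a neighbour that had at least 5% as many counts. Acaa2, the mitochondrial thiolase, was at 47.0 to 51.7 CPM in KO and 45.5 to 49.2 CPM in WT. The remaining members of the spiral, the dehydrogenases Acadl, Acadm, Acads and Hadh and the hydratase Echs1, spanned 30.2 to 65.3 CPM in KO and 32.0 to 63.2 CPM in WT.

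Enzymes for unsaturated fatty acids and the electron transfer chain of beta-oxidation were also close to level. Of the auxiliary enzymes, the isomerase gene Eci2 was at 35.4, 37.3 and 32.8 CPM in KO and 32.1 and 32.3 CPM in WT, with no overlap but a gap of under 1 CPM. Its partner Eci1 was at 28.8 ± 1.43 CPM in KO and 29.4 ± 0.160 CPM in WT (SD, n = 3 and 2), and Decr1, the dienoyl-CoA reductase, was at 15.3 to 17.1 CPM in KO and 17.0 to 17.9 CPM in WT. Etfa and Etfb encode the subunits of the electron transfer flavoprotein, and Etfdh passes their electrons to ubiquinone. Etfb was measured at 47.8, 56.7 and 50.7 CPM in KO and 44.0 and 49.6 CPM in WT, a log2 fold change of 0.14 (SE 0.10, adjusted p = 0.516). Etfa was at 59.9 to 60.3 CPM in KO, inside the WT values of 56.2 and 63.8 CPM, and Etfdh, at 28.7 to 31.4 CPM in KO, was likewise inside the WT values of 28.4 and 31.7 CPM. The ratio of Etfa to Etfb by TPM was 0.800, 0.674 and 0.749 in KO libraries and 0.810 and 0.817 in WT libraries. It was lower in every KO library, but KO library 1 lay close to WT library 1, and no test was made. All other ratios formed between subunits of 1 complex overlapped between the groups.

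Transcripts of the PGC-1 coactivators, which raise the expression of oxidative genes in many tissues, were scarce. Ppargc1b was measured at 9.66, 10.3 and 11.0 CPM in KO and 12.7 and 10.9 CPM in WT, a log2 fold change of −0.20 (SE 0.12, adjusted p = 0.49). Ppargc1a was the least abundant of the 46 genes, at 1.17, 0.798 and 0.688 CPM in KO and 0.825 and 0.729 CPM in WT, a log2 fold change of 0.18 (SE 0.35, adjusted p = 0.849). Groups overlapped for both genes. With 23.2 counts per library on average, a Ppargc1a level higher in KO by up to 1.02 on the log2 scale lies inside its interval.

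Among the genes that bring pyruvate into the cycle, Pcx stood apart from the subunits of pyruvate dehydrogenase. Pcx (plus strand of chromosome 19, 4510472 to 4621752) was measured at 23.5, 13.3 and 14.8 CPM in KO libraries and 6.63 and 7.64 CPM in WT libraries. As with Acsl1, KO library 1 was highest and every KO library was above both WT libraries. Its log2 fold change was 1.27 (SE 0.27, interval 0.62 to 1.91), 2.41-fold higher in KO. The edgeR adjusted p was 0.0862 and the DESeq2 adjusted p was 0.000389. The gene model of Pcx shares 3883 bases with Lrfn4 on the opposite strand, which had 20.3% as many counts as Pcx. Pdhb, the beta subunit of the first enzyme of pyruvate dehydrogenase, was at 73.0, 71.9 and 65.5 CPM in KO and 66.8 and 70.4 CPM in WT, a log2 fold change of 0.03 (SE 0.07, adjusted p = 0.872). Its partner Pdha1 was at 121.3 to 123.1 CPM in KO and 122.5 to 135.3 CPM in WT. Dlat and Dld, which encode its other catalytic components, overlapped with WT or nearly so. Dld was at 55.6 to 58.1 CPM in KO and 56.2 to 59.1 CPM in WT, and Dlat was at 39.9 to 42.4 CPM in KO and 42.5 to 42.9 CPM in WT. Dlat lay below WT in every KO library, by under 0.1 CPM at the nearest.

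**Figure D3:**
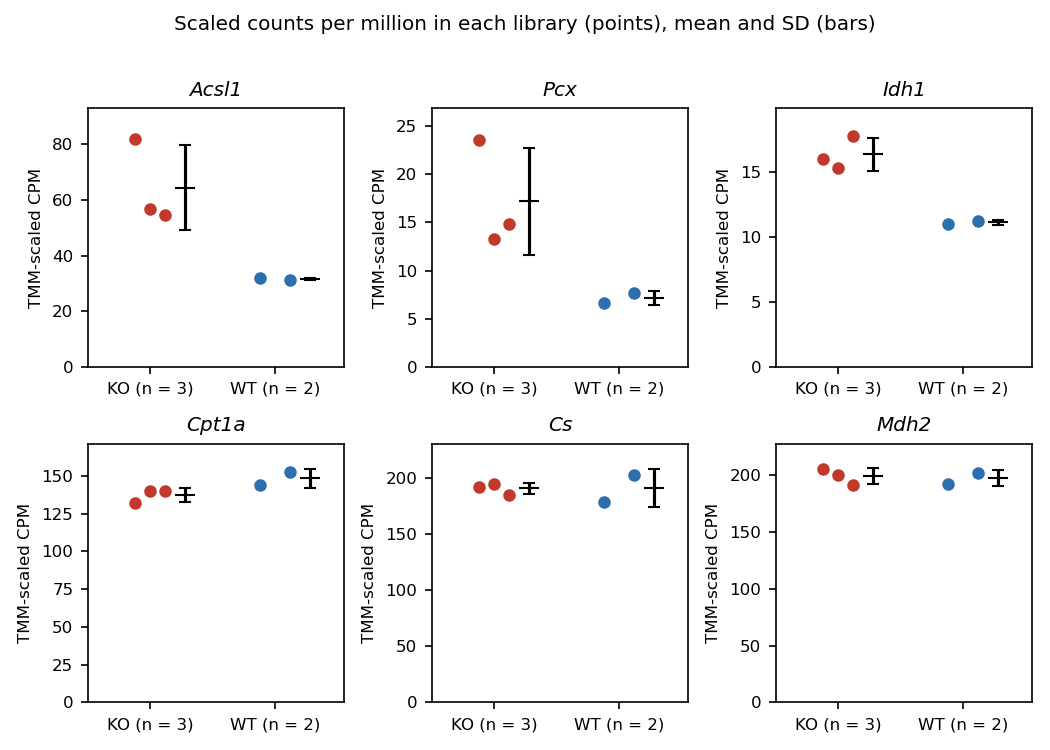
TMM-scaled CPM of 6 of the genes in each KO library (left, n = 3) and WT library (right, n = 2), with the mean and SD beside the points and axes that start at 0. Acsl1, Pcx and Idh1 do not overlap between the groups, Cpt1a is slightly lower in KO on this scale (and higher with pan-T cell scaling), and Cs and Mdh2 overlap.

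Of the 15 genes of the TCA cycle and its isozymes, Idh1 alone had an unadjusted p under 0.05, where 10.7% of all genes tested were higher in KO. Idh1 (minus strand of chromosome 1, 65158616 to 65186500) was at 16.0, 15.3 and 17.7 CPM in KO libraries and 11.0 and 11.2 CPM in WT libraries. KO library 3 was highest here, and the groups were separated by more than the range within either. The log2 fold change was 0.56 (SE 0.11, interval 0.30 to 0.81), 1.47-fold higher in KO, with an edgeR adjusted p of 0.0774 and a DESeq2 adjusted p of 0.00285. Idh2, the mitochondrial NADP-dependent enzyme, was at 43.2, 34.3 and 30.1 CPM in KO and 31.0 and 32.0 CPM in WT, a log2 fold change of 0.18 (SE 0.15, adjusted p = 0.609). KO library 3 lay below both WT libraries. Aco1, the cytosolic aconitase that doubles as an iron-responsive RNA-binding protein, was at 37.2, 38.6 and 37.9 CPM in KO and 35.2 and 32.5 CPM in WT, without overlap.

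Citrate synthase and the malate dehydrogenases differed little between the groups. Citrate synthase, encoded by Cs, forms citrate from acetyl-CoA and oxaloacetate. Cs was at 191.9, 194.8 and 185.0 CPM in KO and 178.7 and 202.8 CPM in WT, a log2 fold change of −0.0012 (SE 0.07, adjusted p = 0.995), and all KO values lay between the WT values. Mdh2, the mitochondrial malate dehydrogenase, was at 205.5, 199.7 and 191.2 CPM in KO and 192.3 and 202.0 CPM in WT, a log2 fold change of 0.01 (SE 0.06, adjusted p = 0.948). Mdh1, its cytosolic counterpart in the malate-aspartate shuttle, was at 153.6, 162.2 and 159.3 CPM in KO and 152.4 and 177.2 CPM in WT, a log2 fold change of −0.06 (SE 0.08, adjusted p = 0.778). None of these 3 separated the groups.

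Ogdh and Dlst encode the first 2 enzymes of the 2-oxoglutarate dehydrogenase complex. Ogdh was at 244.1, 229.6 and 220.0 CPM in KO and 216.4 and 231.2 CPM in WT, a log2 fold change of 0.05 (SE 0.07, adjusted p = 0.793). Dlst was at 111.9, 113.2 and 104.6 CPM in KO and 106.3 and 110.5 CPM in WT, a log2 fold change of 0.02 (SE 0.06, adjusted p = 0.918). The NAD-dependent isocitrate dehydrogenase has subunits from Idh3a, Idh3b and Idh3g. Idh3g was at 106.0, 109.0 and 99.5 CPM in KO and 102.2 and 116.9 CPM in WT, a log2 fold change of −0.06 (SE 0.08, adjusted p = 0.758). Idh3b, at 102.4 to 107.0 CPM in KO, lay below the 112.7 and 113.3 CPM in WT in every library, whereas Idh3a overlapped, at 43.3 to 49.5 CPM in KO and 47.1 to 50.2 CPM in WT.

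Succinyl-CoA ligase joins the alpha subunit from Suclg1 with a GTP-forming beta subunit from Suclg2 or an ATP-forming one from Sucla2. Suclg2 was at 46.8, 47.2 and 44.7 CPM in KO and 48.2 and 48.1 CPM in WT, a log2 fold change of −0.06 (SE 0.06, adjusted p = 0.692), and Sucla2 was at 35.2, 38.1 and 34.4 CPM in KO and 36.4 and 37.7 CPM in WT, a log2 fold change of −0.04 (SE 0.07, adjusted p = 0.819). Suclg2 lay slightly below WT in every KO library and Sucla2 overlapped. Suclg1 was at 56.0 to 65.0 CPM in KO and 59.7 to 66.6 CPM in WT. Fh1, the fumarase gene, was at 51.8 to 60.7 CPM in KO and 53.3 to 62.3 CPM in WT.

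Per length, the most abundant of the 46 transcripts were Mdh2 at a mean of 221 TPM over the 5 libraries, Cs at 159, Mdh1 at 149, Pdhb at 111 and Etfb at 101 TPM. Ogdh at 98.8, Idh3g at 93.6 and Dlst at 93.4 TPM came next, and the ranges of their values over the libraries overlapped. Within each library Ogdh was above Dlst, at a ratio of 1.03 to 1.11. The least abundant were Ppargc1a at 0.299, Cpt1b at 1.29, Acsl3 at 5.33, Ppargc1b at 6.51 and Pcx at 7.05 TPM. Acsl1 and Idh1, at 12.5 and 12.0 TPM, were also in the lower part of the range, so the 3 genes with an unadjusted p under 0.05 were not the pathway's abundant enzymes. In all, 19 of the 46 genes were above 50 TPM and 5 were below 10 TPM.

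**Figure D4:**
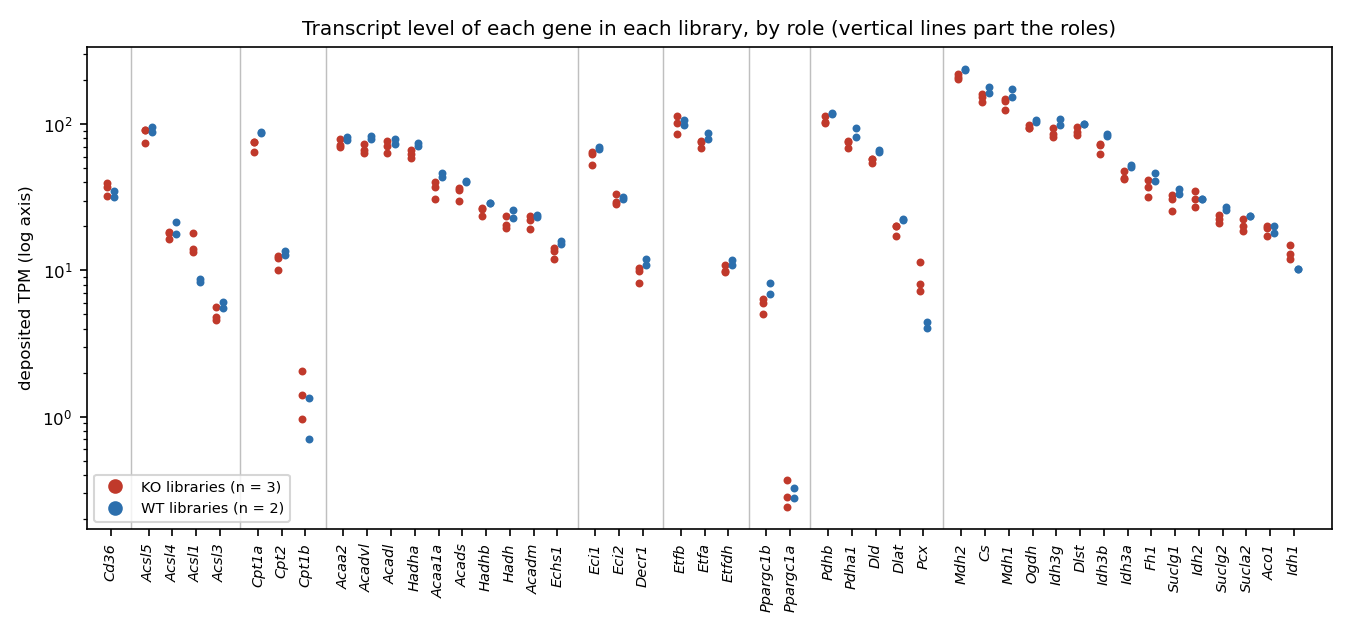
Deposited TPM of each of the 46 genes on a log axis, 1 point per library, with KO libraries (n = 3) left of WT libraries (n = 2) within each gene and genes ordered by level within each role. Mdh2, Cs and Mdh1 are at the top, and Ppargc1a, at 0.299 TPM on average, is lowest.

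Isozyme balance within a library was compared for 6 pairs by the log2 ratio of TPM, with an exact two-sided permutation test over the 3 KO and 2 WT libraries, a design in which no p can fall below 0.2. The ratio of Idh1 to Idh2 was 0.345, 0.417 and 0.550 in KO libraries and 0.331 and 0.328 in WT libraries, higher in every KO library (log2 difference 0.38, exact permutation p = 0.2, adjusted over the pairs 0.6). The ratio of Cpt1a to Cpt1b was 66.2, 37.0 and 54.0 in KO and 122 and 66.4 in WT, lower in every KO library (log2 difference −0.82, exact permutation p = 0.2, adjusted 0.6), and rests on the few Cpt1b counts. Groups overlapped for Suclg2 to Sucla2, Acsl5 to Acsl4, Ppargc1b to Ppargc1a and Mdh1 to Mdh2, whose log2 differences were −0.013, 0.06, −0.35 and −0.066. Ratios between subunits of 1 complex overlapped between the groups for Hadha to Hadhb, Ogdh to Dlst and Pdha1 to Pdhb. Hadha to Hadhb was 2.47 ± 0.105 in KO and 2.51 ± 0.103 in WT, Ogdh to Dlst was 1.07 ± 0.0389 in KO and 1.05 ± 0.0198 in WT, and Pdha1 to Pdhb was 0.696 ± 0.0448 in KO and 0.749 ± 0.0798 in WT (SD, n = 3 and 2).

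The upstream sequences of the genes with an unadjusted p under 0.05 are given beside that of Cpt1a, the entry enzyme with no such difference, because Krüppel-like factors are known to bind GC boxes and CACCC boxes. Each is the 250 bases before the gene's start in RefSeq (GRCm38.p6), 5′ to 3′ on the gene's strand, and capitals mark any letters of the motifs searched.
Acsl1, chr8:46470787-46471036, plus strand: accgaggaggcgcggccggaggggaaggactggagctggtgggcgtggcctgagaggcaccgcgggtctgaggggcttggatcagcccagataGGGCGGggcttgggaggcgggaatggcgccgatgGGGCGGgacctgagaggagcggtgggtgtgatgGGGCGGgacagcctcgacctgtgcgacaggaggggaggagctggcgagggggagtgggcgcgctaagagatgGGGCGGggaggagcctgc
Pcx, chr19:4510222-4510471, plus strand: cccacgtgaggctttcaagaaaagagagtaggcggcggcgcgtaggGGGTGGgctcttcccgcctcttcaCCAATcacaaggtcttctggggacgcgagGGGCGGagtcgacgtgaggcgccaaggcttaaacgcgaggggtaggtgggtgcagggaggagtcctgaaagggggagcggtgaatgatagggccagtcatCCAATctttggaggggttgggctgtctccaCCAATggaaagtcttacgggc
Idh1, chr1:65186480-65186729, minus strand: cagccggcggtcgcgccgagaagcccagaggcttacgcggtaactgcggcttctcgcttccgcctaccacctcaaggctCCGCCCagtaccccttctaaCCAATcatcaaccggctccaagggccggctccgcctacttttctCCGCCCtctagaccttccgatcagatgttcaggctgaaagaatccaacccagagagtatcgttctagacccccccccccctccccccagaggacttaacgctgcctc
Cpt1a, chr19:3323051-3323300, plus strand: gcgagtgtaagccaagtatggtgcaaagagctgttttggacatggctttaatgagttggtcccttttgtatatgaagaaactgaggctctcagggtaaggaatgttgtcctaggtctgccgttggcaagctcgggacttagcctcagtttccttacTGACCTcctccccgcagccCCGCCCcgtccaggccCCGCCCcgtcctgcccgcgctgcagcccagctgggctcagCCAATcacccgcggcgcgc

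All motifs were searched on both strands. The GC box was spelled GGGCGG and the box of CACCC type was spelled CCACCC. The core of the NRF1 site was GCATGCGC and the extended half-site of estrogen-related receptors was TCAAGGTCA, which contains the nuclear receptor half-site, AGGTCA. The letters CCGGAAGT stood for ETS factors and CCAAT for the box of that name. Of the 46 genes, 41 had a window in the RefSeq table. Acsl1 held 4 GC boxes, Idh1 2, Pcx 1 and Cpt1a 2, and Pcx was the only one of the 4 with the letters CCACCC. The shorter letters CACCC, which were not searched, also stand in the printed windows of Cpt1a and, on the other strand, Acsl1. A GC box was present in 70.7% of the 41 windows, beside 57.9% of 10402 windows of genes tested and 41.2% of all 18831 windows. The letters CCACCC were in 31.7% of the 41, beside 33.1% of windows of genes tested. The NRF1 core was in 7.32% beside 4.37%, the nuclear receptor half-site in 17.1% beside 10.7%, the CCAAT box in 51.2% beside 36.2% and the ETS letters in 2.44% beside 5.83%. The extended half-site was in none of the 41 windows and in 0.24% of windows of genes tested. Median GC content was 60.8% in the 41 windows and 59.6% in windows of genes tested. Such matches describe letters, not binding.

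Neighbouring steps of the same pathways were read from a list of 81 further genes, of which 76 could be tested. None was called with edgeR, and 7 were called with DESeq2, 6 of them higher in KO, where 5.84% of all genes were called higher. At an unadjusted p under 0.05, 12 of the 76 were higher in KO and 3 lower, beside 10.7% and 5.62% of all genes tested, and their median log2 fold change was −0.012. Mgll, the monoacylglycerol lipase, was at 28.1, 15.5 and 18.5 CPM in KO and 6.99 and 7.71 CPM in WT, a log2 fold change of 1.49 (SE 0.27, adjusted p = 0.0723). As with Acsl1 and Pcx, KO library 1 was highest. Lpl, the secreted lipoprotein lipase, was at 13.1, 13.5 and 13.0 CPM in KO and 7.65 and 3.84 CPM in WT, a log2 fold change of 1.19 (SE 0.27, adjusted p = 0.102). Fabp4, a fatty acid-binding protein of adipocytes and macrophages, was at 1.68, 1.60 and 2.03 CPM in KO and 0.693 and 0.806 CPM in WT. Its log2 fold change was 1.24 (SE 0.27, edgeR adjusted p = 0.0895). Fabp4 was near the lower limit of detection, with 43, 42 and 62 counts in KO libraries and 21 and 21 in WT libraries. Of the 9 listed genes of uptake, binding and lipolysis, 4 were higher in every KO library than in both WT libraries (Mgll, Lpl, Fabp4 and Pnpla2), where 17.6% of all genes were, and the other 5 overlapped (Slc27a1, Slc27a4, Fabp5, Lipe and Lipa).

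Of the 3 genes of carnitine transport in that list none was called, and Slc25a20, the carnitine-acylcarnitine carrier, had a log2 fold change of 0.00036 (adjusted p = 0.999). Crat, which moves acetyl groups between CoA and carnitine, was at 33.8, 25.7 and 23.1 CPM in KO and 14.7 and 16.8 CPM in WT, a log2 fold change of 0.80 (SE 0.18, adjusted p = 0.0919). Slc22a5, the plasma membrane carnitine transporter, was at 36.2, 38.7 and 37.2 CPM in KO and 50.9 and 44.7 CPM in WT, a log2 fold change of −0.36 (SE 0.08, adjusted p = 0.0961) that was −0.089 with pan-T cell scaling. Every KO library was above WT for Crat and below WT for Slc22a5. Pck2, the mitochondrial enzyme that draws oxaloacetate out of the cycle, was at 78.6, 79.7 and 78.7 CPM in KO and 61.6 and 66.9 CPM in WT, a log2 fold change of 0.30 (SE 0.06, adjusted p = 0.0844). The succinate dehydrogenase subunit genes of the cycle, Sdha, Sdhb, Sdhc and Sdhd, had log2 fold changes of 0.01 to 0.06 and overlapped between the groups. Ppara, Pdk4, Acaa1b, Me1 and Me3 had too few counts to be tested.

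Set beside these values, the summed CPM of all 46 genes was 3083, 3111 and 2988 in KO libraries and 2943 and 3118 in WT libraries, which overlap, while the macrophage and erythroid sums were higher in every KO library. The sum of the monocyte and dendritic cell markers was also higher, at 229 to 248 CPM in KO and 192 to 193 CPM in WT. Most of that sum was Lyz2, at 152 to 179 CPM in KO and 115 to 129 CPM in WT. Of the 6 such genes tested, 3 were higher in every KO library (Lyz2, Cd14 and Itgax), where 17.6% of all genes were. The other 3 overlapped (Flt3, Ly6c2 and Ccr2). Without Acsl1, Pcx and Idh1 the median log2 fold change of the other 43 was −0.028. Among KO libraries, Acsl1, Pcx, Mgll and Crat were highest in library 1. The erythroid sum (92286 CPM) and the monocyte and dendritic cell sum (248 CPM) were also highest there. So were the B cell sum (3042 CPM) and the platelet marker sum (16.2 CPM), while the macrophage sum was lowest, at 1344 CPM. Idh1 and Fabp4 were highest in KO library 3 and Lpl in KO library 2. For the higher Acsl1, Pcx, Idh1, Mgll, Lpl, Fabp4 and Crat values, a part of other cells' RNA was not tested. This holds for macrophages, monocytes, dendritic cells, erythroid cells, B cells and platelets. Adipocyte genes, a list chosen after values were seen (Adipoq, Plin1, Cidec, Cfd and Lep), had 0 to 6 counts in any library, and a part of adipocyte RNA was likewise not tested.

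**Figure D5:**
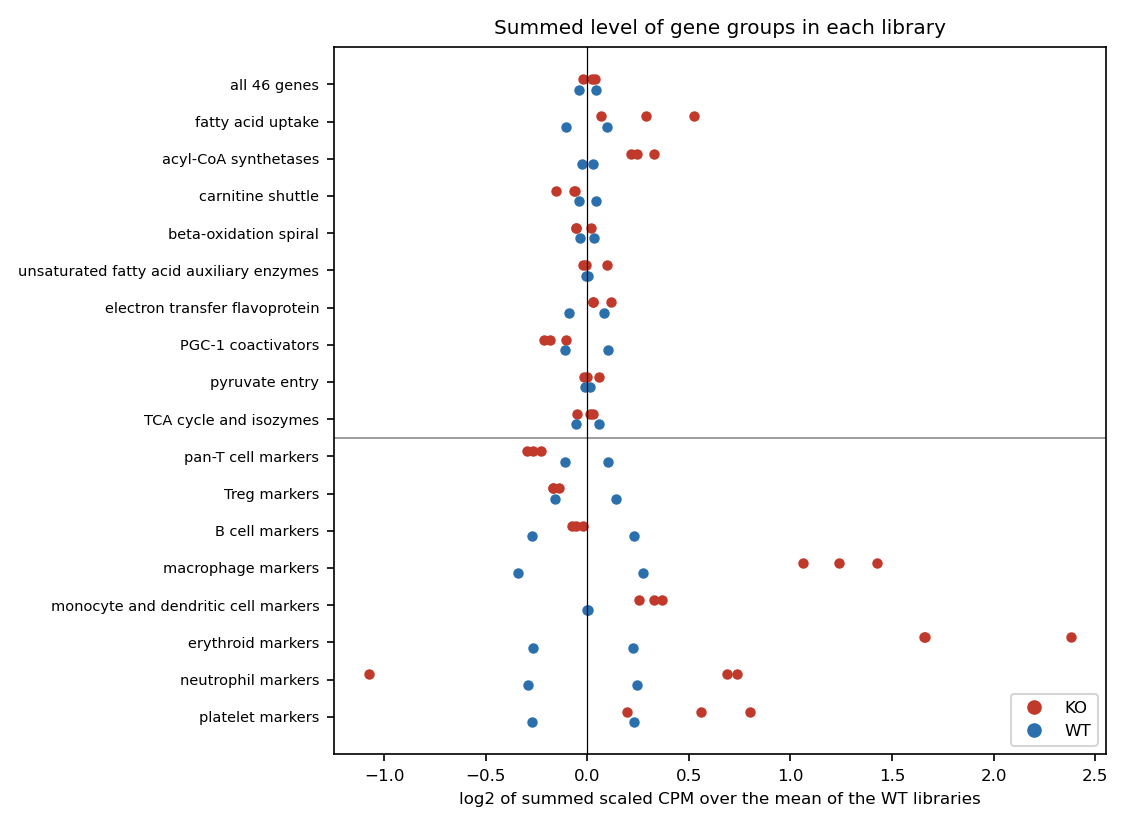
Summed TMM-scaled CPM of gene groups in each library, as log2 of the ratio to the mean of the WT libraries, with KO points (n = 3) above WT points (n = 2) in each row; the roles of the 46 genes stand above the grey line and cell type markers below it. The sum of all 46 genes overlaps between the groups, while macrophage and erythroid sums lie to the right in every KO library.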

How the data were processed

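Per the labels' protocols, total RNA of 3 KO and 2 WT preparations was purified on columns and ribosomal RNA was removed. Trimmomatic 0.36, STAR 2.5.2b and the build GRCm38 are named in the submitters' processing notes. How reads were counted, with which annotation and strand setting, is not given in the sources used here. The authors deposited whole-number counts per gene, RPKM and TPM for 48440 genes, per the file headers. RPKM served only to recompute ratios. A further column that the authors deposited under the name CPM, treated as a score because it holds an unstated library factor, was not used.

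The filterByExpr rule kept 14460 genes, whose counts were TMM-scaled and fitted by genotype in edgeR 4.0.16 (R 4.3.3), with Benjamini-Hochberg adjustment across them. The SE is the log2 fold change divided by the square root of F. The biological coefficient of variation was 13.1%. Tested on simulated counts for these 14460 genes, with 200 changed genes of at least 100 counts, the test recovered 93% of changes of 1 and 32% of changes of 0.5 on the log2 scale. It also called 13 unchanged genes there, and 1 gene when nothing had changed. Simulated counts followed the spread fitted to each gene, without a broad shift like that of the erythroid and macrophage genes. In the data, Acsl1 and Pcx were not called at log2 fold changes of 1.02 and 1.27, so these rates need not hold there.

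The 46 genes and all lists were chosen with earlier results of these data known. Values in every library are given for members with an unadjusted p under 0.05, the 8 highest by TPM and the isozyme pairs, and for the 6 listed neighbours with the smallest p; other members are given by range or CPM. Alternatives were other scalings, filters, DESeq2 1.42.0, a replicate term, leaving out each library, and removal of very variable gene classes. Overlaps were read from the deposited coordinates. Within a group, libraries differed beyond sampling noise, with a chi-square of 16.5 to 39.1 per degree of freedom. Itgam, a listed myeloid marker, was not analysed here. A gene of the neighbouring-steps list is not reported by name here.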

Additional observations from a re-analysis of the deposited data

How the results depend on the processing

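Of the 46 genes, none was called under relative log expression scaling, a mean of at least 50 counts, or removal of antigen receptor, haemoglobin, mitochondrial and ribosomal RNA genes. Acsl1, Pcx and Idh1, 3 in each case, were called with no filter, DESeq2, scaling to 14 pan-T cell genes and a false discovery rate of 0.10. Without KO replicate 1, Acsl1 (log2 fold change 0.82, adjusted p = 0.00707) and Pcx (0.98, adjusted p = 0.0315) were called, so the count ran from 0 to 2 over left-out libraries. Across left-out libraries the log2 fold change ran from 0.82 to 1.13 for Acsl1, 0.98 to 1.42 for Pcx and 0.50 to 0.60 for Idh1. Further pathway genes called numbered 3 with no filter, 7 with DESeq2, 9 with pan-T scaling, 5 at 0.10, and 0 to 1 over left-out libraries. Over all genes, 41 were called; the number was 589 with no filter, 23 with a mean of 50 counts, 1022 with DESeq2, 118 without the removed classes, 1218 with pan-T scaling, 579 at 0.10, and 1 (without KO replicate 2) to 334 (without KO replicate 1) over left-out libraries. It was 11 without KO replicate 3 and 3 without WT replicate 2. The cause of these differences was not tested.

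Pan-T scaling moved the median of all genes by 0.26, and all 46 genes were then positive, with a median of 0.25. Of them, 25 turned sign, among them the following genes whose fold changes are given above: Cpt1a 0.14, Ppargc1b 0.073, Cs 0.25, Idh3g 0.19, Suclg2 0.20, Sucla2 0.21 and Mdh1 0.19. Cs, near 0, also turned to 0.0034 under relative log expression, 0.010 with a mean of 50 counts, 0.0035 with DESeq2 and 0.0043 without the removed classes. Whether the replicate numbers pair the libraries is not settled. Deviations of same-numbered libraries had correlations of −0.0001 and 0.062. These cannot decide it, because the deviations of the 2 WT libraries from their mean mirror each other. With a replicate block 32 genes were called over all genes and 0 of the 46, and Cs was 0.022. Over left-out libraries the median of the 46 ran from −0.036 to 0.051, and log2 fold changes ran from −0.091 to 0.13 for Acsl4, −0.065 to 0.34 for Ppargc1a, −0.0050 to 0.085 for Pdhb, −0.090 to 0.091 for Cs, −0.16 to 0.036 for Idh3g, −0.0087 to 0.061 for Dlst, −0.16 to 0.054 for Mdh1 and −0.023 to 0.047 for Mdh2. Isozyme log2 differences ran from −0.038 to 0.016 for Suclg2 to Sucla2, −0.13 to 0.25 for Acsl5 to Acsl4 and −0.14 to 0.0076 for Mdh1 to Mdh2. Depth limits Cpt1b and Ppargc1a, the 2 genes with fewer than 100 counts on average.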
